A study of Mus musculus with 17 samples.

Results

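The DNA replication and mitosis genes are a set of 40 genes chosen by name. No cut on measured values was used, but earlier results of these data were known. The set holds 15 S-phase members, which license, start or feed DNA replication, and 25 mitotic members, which run chromosome segregation and cell division. All 40 were found, among 13905 genes kept from the genotype files and 39179 genes kept from the files of an inducible model, and all 40 passed the filter on low values in both. The study sequenced RNA from frozen prostate tissue and prostate tumours of C57BL/6 mice. The wild type group is prostate from mice of 12 months (n = 3). The Ctnnb1 group is tumour from mice of about 12 months in which exon 3 of Ctnnb1, the gene of beta-catenin, is deleted from 1 allele (n = 3). The combined group is tumour from mice of about 6 to 8 months that carry this allele together with a further engineered change (n = 3), so age and genotype differ together from the other groups. The labels of these genotypes name no Cre driver. The inducible model carries both changes in all its libraries, made through a CreERT2 recombinase. Its tumours of about 15 months were either mock treated (n = 2) or treated with what the labels call ADT (n = 3). In prostate work ADT is the usual abbreviation of androgen deprivation therapy. The sample titles hold the letters ctrl for mock and cast for ADT, which may stand for control and castration. No source used here spells these letters out or gives the agent or its duration. The labels do not say whether the samples of a group come from separate animals, so p-values measure the spread between these samples.

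Before a cell copies its DNA, CDC6 and CDT1 load the MCM helicase onto replication origins, cyclin E and E2F1 push the cell into S phase, and PCNA holds the polymerases on the template while ribonucleotide reductase and thymidylate synthase supply the nucleotides. Later, cyclin A and the cyclin B proteins with CDK1 drive entry into mitosis, the Aurora, PLK1 and NEK2 kinases and the kinesins build and move the spindle, and the checkpoint kinases delay anaphase until CDC20 releases it. Resting epithelium and muscle hold little of either group of transcripts, and the mitotic ones are limited to a short stretch of the cycle.

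The promoters of the set are shown first because the S-phase and mitotic members differ in the short motifs they hold. RefSeq windows on GRCm38.p6 of 300 bases, 250 before and 50 after each gene's start, were matched by symbol for 33 of the 40 members. Ccna2, Kif20a, Ccne2, Tpx2, Aurkb, Mcm4 and Foxm1 had no entry. Only the first window listed for a member's symbol was used, whereas the shares of all windows count every window. The windows were searched on both strands, counting overlapping matches, for the cell cycle homology region (CHR, written TTTGAA, or TTCGAA in its variant), for E2F cores (written TTCCCGC, with TTGGCGC as the second form, TTGCCGC as the third and TTCGCGC as the fourth) and for the CCAAT box, spelled by its name; its reverse complement can share letters with an E2F core. A CHR motif was present in 16 of 20 mitotic windows (80.0%) and in 2 of 13 S-phase windows (15.4%), those of Mcm2 and Mcm7, against 19.2% of all 32851 windows. E2F cores had the opposite distribution, with 8 of 13 S-phase windows (61.5%), 3 of 20 mitotic windows (15.0%) and 9.6% of all windows. The CCAAT box was in 18 of 20 mitotic windows (90.0%), 8 of 13 S-phase windows (61.5%) and 37.4% of all windows. These matches are a description of letters and show neither binding nor use of a site. The 180 bases before the start of 3 S-phase members with E2F cores and of 5 mitotic members with a CHR motif are given 5′ to 3′ on the gene's strand, with every match of the 3 motifs in capitals.
Mcm5 (chr8:75109329-75109508, plus strand): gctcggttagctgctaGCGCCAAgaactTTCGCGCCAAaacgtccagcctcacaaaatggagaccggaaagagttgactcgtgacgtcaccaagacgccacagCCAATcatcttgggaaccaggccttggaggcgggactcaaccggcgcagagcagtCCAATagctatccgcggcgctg
Mcm6 (chr1:128359706-128359885, minus strand): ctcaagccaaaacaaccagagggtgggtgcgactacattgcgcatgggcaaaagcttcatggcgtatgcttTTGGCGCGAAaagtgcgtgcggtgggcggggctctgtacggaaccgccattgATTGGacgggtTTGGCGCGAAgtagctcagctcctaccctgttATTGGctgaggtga
Rrm1 (chr7:102441515-102441694, plus strand): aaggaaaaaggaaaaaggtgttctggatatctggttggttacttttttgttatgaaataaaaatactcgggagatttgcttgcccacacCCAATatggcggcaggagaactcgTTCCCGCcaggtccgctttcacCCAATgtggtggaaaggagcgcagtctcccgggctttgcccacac
Mki67 (chr7:135716380-135716559, minus strand): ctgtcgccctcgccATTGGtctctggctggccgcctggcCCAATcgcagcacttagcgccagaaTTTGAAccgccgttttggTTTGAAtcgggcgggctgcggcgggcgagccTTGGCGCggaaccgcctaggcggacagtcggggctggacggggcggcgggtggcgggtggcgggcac
Top2a (chr11:99024190-99024369, minus strand): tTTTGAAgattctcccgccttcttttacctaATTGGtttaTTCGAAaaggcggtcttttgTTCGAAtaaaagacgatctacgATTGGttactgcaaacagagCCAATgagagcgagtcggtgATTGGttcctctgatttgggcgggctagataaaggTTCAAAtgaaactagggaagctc
Cdk1 (chr10:69352913-69353092, minus strand): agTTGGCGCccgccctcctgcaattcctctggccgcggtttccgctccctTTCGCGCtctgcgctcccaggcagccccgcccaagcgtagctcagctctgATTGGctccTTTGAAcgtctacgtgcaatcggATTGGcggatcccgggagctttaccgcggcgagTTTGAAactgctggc
Cdc20 (chr4:118437344-118437523, minus strand): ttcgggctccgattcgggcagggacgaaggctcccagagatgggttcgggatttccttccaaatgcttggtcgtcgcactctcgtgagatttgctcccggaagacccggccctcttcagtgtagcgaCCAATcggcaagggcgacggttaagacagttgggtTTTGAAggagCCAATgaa
Kif11 (chr19:37376202-37376381, plus strand): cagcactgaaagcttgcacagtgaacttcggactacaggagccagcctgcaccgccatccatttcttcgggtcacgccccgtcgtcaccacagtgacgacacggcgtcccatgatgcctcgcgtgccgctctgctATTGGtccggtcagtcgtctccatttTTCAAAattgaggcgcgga
In these stretches Mcm5, which encodes a helicase subunit, and Mcm6, its partner in the same ring, hold pairs of E2F cores that overlap on opposite strands, and Rrm1, the large subunit of ribonucleotide reductase, holds a single core. Mki67, the Ki-67 protein that coats mitotic chromosomes, and Cdk1, the mitotic kinase, hold both CHR motifs and E2F cores, whereas Top2a, Cdc20 and Kif11 hold CHR motifs and CCAAT boxes only.

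Values are the deposited scaled read counts, whole numbers in which each library was divided by its own factor. Levels of the targeted gene Ctnnb1 ran from 18320 to 18850 in wild type, from 25993 to 26930 in Ctnnb1 tumours and from 27677 to 32871 in combined tumours, and were 30608 and 40205 in mock and 64204 to 76649 in ADT; a value per gene cannot show the loss of 1 exon and does not check the labels. Totals over the genes kept ran from 37222233 to 38995268 in wild type and from 26428684 to 27522308 in the 6 tumour libraries of the genotype files. Of the whole numbers from 1 to 100, 19 to 23 were never taken in a wild type library and none was missed in these tumour libraries, so the wild type values had been scaled up, by a factor that was not used here, and the depth of a single value cannot be stated. Differences below are on the log2(value + 1) scale with their standard error (SE), from the moderated test of limma, adjusted by Benjamini-Hochberg over all genes tested, and a gene was called at an adjusted p under 0.05. The comparisons of the Ctnnb1 and the combined group share the same 3 wild type libraries.

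In the Ctnnb1 tumours all 15 S-phase members and all 25 mitotic members rose against wild type, where 28.9% of the 13905 genes tested were called higher and 29.6% lower. The median difference was 1.26 for the S-phase members, a 2.39-fold change, and 2.85 for the mitotic members, a 7.21-fold change, beside 0.00 for all genes tested. All 40 members also rose in the combined tumours, where 28.3% of genes were called higher, with medians of 1.86 (3.63-fold) and 3.42 (10.7-fold) beside -0.01. No member's tumour values overlapped its wild type values in either comparison, which held for 35.9% and 32.1% of all genes in the higher direction. Library scaling sets the centre of all genes: with equal totals the median of all genes moved from 0.00 to 0.49 (Ctnnb1) and from -0.01 to 0.50 (combined), and the share of calls that were higher moved from 49.4% to 78.9% and from 48.9% to 81.9%, with all 40 members called higher under both. In bulk tissue, more cells of a type and more RNA per cell cannot be told apart.

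Among the 8 licensing genes the median difference was 1.69 in the Ctnnb1 and 1.92 in the combined group. Mcm5 had 183, 166 and 172 scaled reads in the wild type libraries, 1117, 628 and 996 in the Ctnnb1 and 1103, 2133 and 1315 in the combined libraries. Its difference was the largest of the S-phase members in both comparisons, 2.35 (SE 0.28, adjusted p = 0.000227) and 3.06 (SE 0.28, adjusted p = 6.46e-05). Mcm3, another subunit of the helicase ring, followed with 140, 168 and 168 reads in wild type, 953, 545 and 894 in the Ctnnb1 and 924, 1334 and 1208 in the combined group. The differences of Mcm3 were 2.28 (SE 0.23, adjusted p = 0.000111) and 2.84 (SE 0.23, adjusted p = 4.05e-05). For both genes the replicate 14 library was the lowest of the Ctnnb1 group and still lay above every wild type library. Mcm2 had 642, 458 and 596 reads in wild type, 1398, 965 and 1483 in the Ctnnb1 and 1440, 1918 and 1625 in the combined group. Its wild type libraries started from a higher level than those of Mcm5 and Mcm3, and its differences were 1.17 (SE 0.20, adjusted p = 0.00133) and 1.56 (SE 0.20, adjusted p = 0.000315).

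The loaders of the helicase took the same direction. Cdt1, which brings the helicase to the origin, had 135, 143 and 127 reads in wild type, 509, 392 and 506 in the Ctnnb1 and 420, 625 and 450 in the combined group, and was the third largest S-phase difference in the Ctnnb1 tumours at 1.78 (SE 0.18, adjusted p = 0.000119). In the combined tumours the third place was held by Cdc6, the ATPase that loads the helicase together with Cdt1, with 50, 57 and 69 reads in wild type, 228, 144 and 198 in the Ctnnb1 and 273, 333 and 374 in the combined group (2.46, SE 0.23, adjusted p = 7.81e-05). The remaining helicase genes Mcm4, Mcm6 and Mcm7 differed by 1.03, 1.72 and 1.53 in the Ctnnb1 and by 1.56, 1.99 and 1.53 in the combined group. Mcm7 thus had the same difference in both, with 1970, 1596 and 2077 reads in the Ctnnb1 and 1710, 1802 and 2126 in the combined libraries.

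Differences were smaller for the fork clamp and the nucleotide enzymes, with medians of 0.96 and 1.28. Pcna, the sliding clamp, had 1256, 1206 and 1242 reads in wild type, 2435, 2004 and 2239 in the Ctnnb1 and 2277, 2866 and 2901 in the combined group. Its wild type libraries lay close together, and its differences were 0.84 (SE 0.11, adjusted p = 0.000346) and 1.11 (SE 0.11, adjusted p = 9.37e-05), the smallest of the S-phase members in the combined tumours. Rrm1 had 887, 862 and 922 reads in wild type, 1452, 1147 and 1562 in the Ctnnb1 and 1915, 2474 and 2296 in the combined group, differences of 0.63 and 1.32. Rrm2, the small subunit of the same reductase, whose supply follows the cell cycle more closely than that of the large one, differed by 1.38 and 2.31, with means of 279.3 reads in wild type, 741.7 in the Ctnnb1 and 1394 in the combined group. Tyms, thymidylate synthase, differed by 1.08 and 1.25, close to each other in the 2 comparisons.

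The G1/S regulators held the smallest difference of the set in the Ctnnb1 tumours. E2f1, the transcription factor of S-phase genes, had 96, 101 and 101 reads in wild type, 144, 137 and 150 in the Ctnnb1 and 302, 373 and 290 in the combined group. In the Ctnnb1 tumours it differed by 0.53 (SE 0.16, adjusted p = 0.0187), a call that was lost without the wild type replicate 1 library (adjusted p = 0.055), without the Ctnnb1 replicate 15 library (adjusted p = 0.0558) and with 3 further libraries in the fit (adjusted p = 0.136). In the combined tumours its difference was 1.68 (SE 0.16, adjusted p = 7.25e-05). Ccne1, cyclin E1, had 56, 58 and 65 reads in wild type, 117, 85 and 106 in the Ctnnb1 and 219, 295 and 254 in the combined group. Its differences were 0.76 (SE 0.20, adjusted p = 0.0122) and 2.08 (SE 0.20, adjusted p = 9.38e-05). Ccne2, cyclin E2, differed by 1.26 and 1.92, from a mean of 81.0 reads in wild type to 194.0 and 307.7. For E2f1, Ccne1 and Ccne2 the lowest combined library lay above the highest Ctnnb1 library. The same held for members of other roles, among them Rrm1, Rrm2, Ccna2 and Aurka, while others such as Mcm7 and Tyms overlapped. This side by side reading of the 2 tumour groups was not tested, and its share over all genes is not given here.

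**Figure D1:**
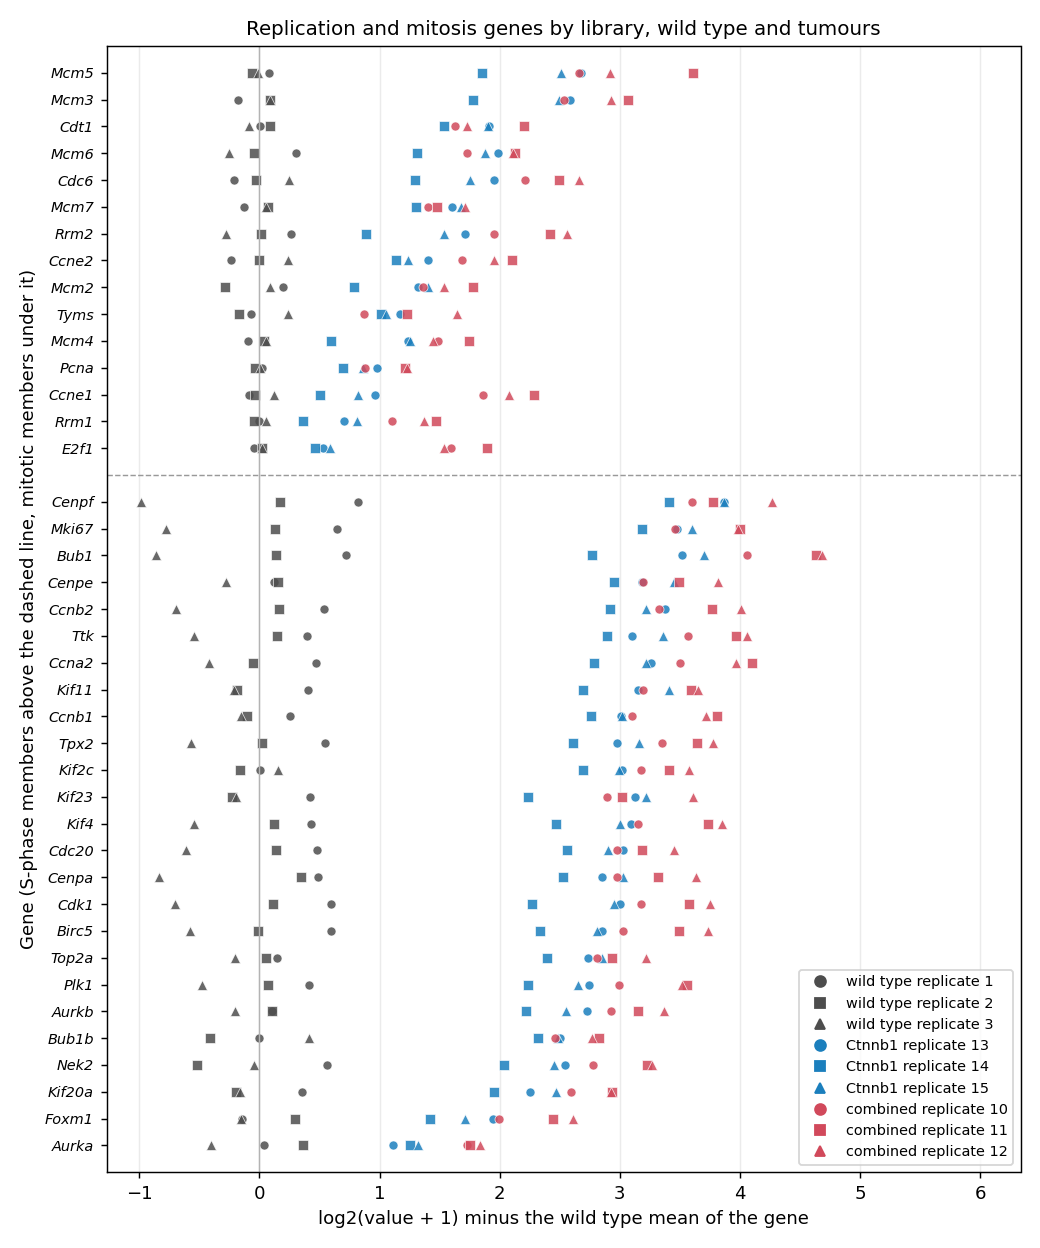
Differences of the 40 members in each library of the genotype files, as log2(value + 1) minus the gene's wild type mean (horizontal axis), with 1 row per gene and 1 marker per library. The 15 S-phase members (upper block) have medians of 1.26 and 1.86 in the Ctnnb1 and combined tumours and the 25 mitotic members (lower block) 2.85 and 3.42, and every tumour marker lies to the right of the gene's wild type markers.

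Among the mitotic members, Mki67 and Top2a are in wide use as readouts of dividing cells. Mki67 (chr7:135689784-135716361, minus strand, GRCm38 in GENCODE M21) had 328, 230 and 122 reads in wild type, 2345, 1912 and 2560 in the Ctnnb1 and 2320, 3362 and 3337 in the combined group. Its differences were 3.42 (SE 0.33, adjusted p = 9.3e-05) and 3.82 (SE 0.33, adjusted p = 5.39e-05), 10.7-fold and 14.1-fold. The wild type libraries of Mki67 were themselves spread from 122 to 328, and the tumour libraries from 1912 to 3362 did not reach down to them. Top2a, topoisomerase II alpha, which untangles sister chromatids, had 445, 419 and 350 reads in wild type, 2689, 2118 and 2912 in the Ctnnb1 and 2825, 3080 and 3752 in the combined group. It differed by 2.66 (SE 0.16, adjusted p = 1.34e-05) and 2.99 (SE 0.16, adjusted p = 1.22e-05).

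The cyclins and CDK1 formed a tight group of large differences. Cdk1 had 122, 87 and 49 reads in wild type, 650, 393 and 631 in the Ctnnb1 and 735, 969 and 1097 in the combined group, differences of 2.74 and 3.50. Ccna2, cyclin A2, differed by 3.09 and 3.86, Ccnb1 by 2.93 and 3.54, and Ccnb2 by 3.17 and 3.70, where both cyclin B proteins activate CDK1 at mitosis. Foxm1, the transcription factor of late cell cycle genes, stood lower with 119, 162 and 118 reads in wild type, 508, 353 and 434 in the Ctnnb1 and 527, 719 and 807 in the combined group, differences of 1.69 and 2.35. The values of Ccnb1 were listed under a further gene number in the files as well, and were used once.

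Of the mitotic kinases, Plk1, which acts at centrosomes and kinetochores, differed by 2.55 and 3.36, Aurkb, the kinase of the chromosomal passenger complex, by 2.50 and 3.15, and Nek2, a centrosome kinase, by 2.34 and 3.09. Aurka, which matures the spindle poles, was the lowest mitotic member in both comparisons. It had 144, 181 and 106 reads in wild type, 304, 337 and 352 in the Ctnnb1 and 466, 476 and 505 in the combined group, with differences of 1.23 (SE 0.19, adjusted p = 0.000908) and 1.77 (SE 0.19, adjusted p = 0.000146). Aurka was also the mitotic member with the highest wild type level per length, 56.8 scaled reads per kb of exon.

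The spindle checkpoint genes held some of the largest differences. Bub1, a kinetochore kinase of the checkpoint, had 29, 19 and 9 reads in wild type, 207, 123 and 235 in the Ctnnb1 and 302, 451 and 465 in the combined group. It differed by 3.33 (SE 0.43, adjusted p = 0.000358) and by 4.46 (SE 0.43, adjusted p = 8.72e-05), 10-fold and 22-fold, from wild type values low enough that the fold depends on a few reads. Ttk, the MPS1 kinase that starts the checkpoint signal, had 24, 20 and 12 reads in wild type, 162, 140 and 194 in the Ctnnb1 and 224, 296 and 316 in the combined group (3.87 in the combined group, SE 0.29, adjusted p = 3.14e-05). Bub1b, the BUBR1 part of the inhibitor complex, differed by 2.44 and 2.68. Cdc20, the activator of the anaphase-promoting complex, had 114, 90 and 53 reads in wild type, 674, 486 and 617 in the Ctnnb1 and 649, 751 and 904 in the combined group, differences of 2.83 and 3.2.

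The 6 spindle genes lay close together, from 2.22 to 3.08 in the Ctnnb1 and from 2.82 to 3.59 in the combined group. Kif11, the kinesin that pushes spindle poles apart, had 94, 62 and 61 reads in wild type, 638, 463 and 762 in the Ctnnb1 and 657, 867 and 900 in the combined group, and was the highest of them in the Ctnnb1 tumours. Tpx2, which nucleates spindle microtubules and activates Aurora A, was the highest in the combined tumours. Kif20a and Kif23, kinesins of the midzone and of cytokinesis, differed by 2.22 and 2.86 in the Ctnnb1 group, Kif2c, which dismantles microtubules at kinetochores, by 2.90, and Kif4, a chromosome-bound kinesin, by 2.85. At the centromere, Cenpf, a large protein of the outer kinetochore, had 90, 57 and 25 reads in wild type, 751, 547 and 752 in the Ctnnb1 and 626, 704 and 993 in the combined group. Its difference was the largest of all members in the Ctnnb1 tumours, 3.71 (SE 0.42, adjusted p = 0.000188), and the second largest in the combined tumours, 3.88 (SE 0.42, adjusted p = 0.000144). Cenpe, a kinetochore motor, differed by 3.2 and 3.50, Cenpa, the centromeric histone, by 2.80 and 3.31, and Birc5 (survivin), a passenger complex protein, by 2.67 and 3.42.

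**Figure D2:**
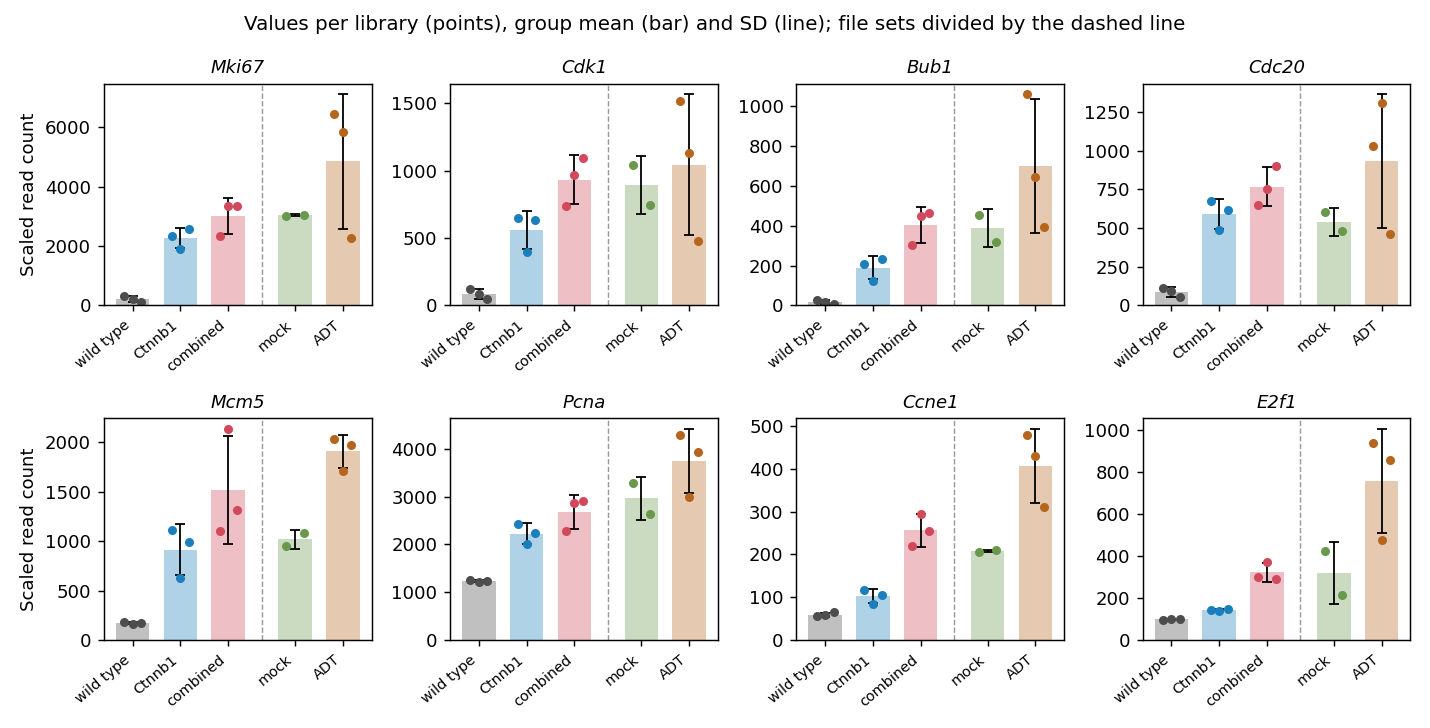
Scaled read counts of 8 members per library (points) with the group mean (bar, from 0) and SD (line); the dashed line divides the genotype files from the inducible model, whose levels were scaled separately. Mki67 runs from 122 to 328 in wild type and from 1912 to 3362 in the tumours, while E2f1 runs from 96 to 101, from 137 to 150 and from 290 to 373 in the wild type, Ctnnb1 and combined groups.

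The median level per length was higher for the S-phase than for the mitotic members in every group, though single members overlapped. Lengths joined the exons of all transcripts of a gene. Per kb of exon, the median member had 49.0 scaled reads among the S-phase and 17.4 among the mitotic genes in wild type; the Ctnnb1 tumours had 184 and 106, the combined tumours 239 and 168. Pcna was the highest S-phase member in all 3 groups, at 514, 928 and 1120 scaled reads per kb, and Cdc6 the lowest, at 11.2, 36.3 and 62.5. The mitotic members with the lowest wild type level per kb were Cenpf (3.71), Ttk (3.79), Cenpe (4.29) and Bub1 (4.36). Each of them differed by more than 3 log2 units from wild type in both tumour groups. These differences are taken from the same low wild type values, so genes picked that way favour large ones. The spread between wild type libraries was wider for the mitotic members, with a median coefficient of variation of 32.0% against 7.92% for the S-phase members. In the tumours they were closer, at 17.3% and 15.8% in the Ctnnb1 and at 19.8% and 14.9% in the combined group.

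Most mitotic members shared their lowest library within each genotype group, and most S-phase members did so in both tumour groups but not in wild type. Averaged over members, the mitotic genes stood 0.38, 0.03 and -0.40 log2 units from the wild type mean in the wild type replicates 1, 2 and 3, whereas the S-phase genes stood at -0.01, -0.03 and 0.04. Replicate 1 was the highest wild type library for 20 of 25 mitotic members and replicate 3 the lowest for 20, where these libraries were highest and lowest for 34.6% and 38.2% of all genes. The S-phase members were split there, highest in replicates 1, 2 and 3 for 5, 4 and 8 and lowest for 7, 5 and 3 of 15, ties counted in each library. In the Ctnnb1 group the replicate 14 library was the lowest for all 15 S-phase and for 24 of 25 mitotic members, against 37.3% of all genes; its averages were 1.03 and 2.48, beside 1.52 and 2.90 in replicate 13 and 1.45 and 2.94 in replicate 15. In the combined group the replicate 10 library was the lowest for 13 of 15 S-phase and all 25 mitotic members, against 31.4% of all genes, with averages of 1.66 and 3.04 beside 2.08 and 3.41 in replicate 11 and 1.96 and 3.56 in replicate 12. Cell type markers differed between these libraries too. From wild type replicate 1 to 3, smooth muscle sums rose (141344, 153860 and 181428), basal sums fell (20757, 19619 and 13315), and other lists rose, fell or crossed. Replicate 14 had the lowest luminal sum of its group (89357, beside 121998 and 120761). It was also lowest for basal, smooth muscle, macrophage and neutrophil markers, and highest for fibroblasts, T and NK cells and B and plasma cells. Replicate 12, the highest for 19 of 25 mitotic members, had the highest luminal sum of its group (152502, beside 102807 and 109186). Its sums were lowest for fibroblasts (35178, beside 266505 and 561354) and for macrophages and monocytes (7801, beside 24829 and 23254). They were also lowest for smooth muscle, neutrophils, T and NK cells and endothelium. The part of these markers in the order of the libraries was not tested. The gap between the mitotic and the S-phase average lay between 1.33 and 1.60 in all 6 tumour libraries.

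**Figure D3:**
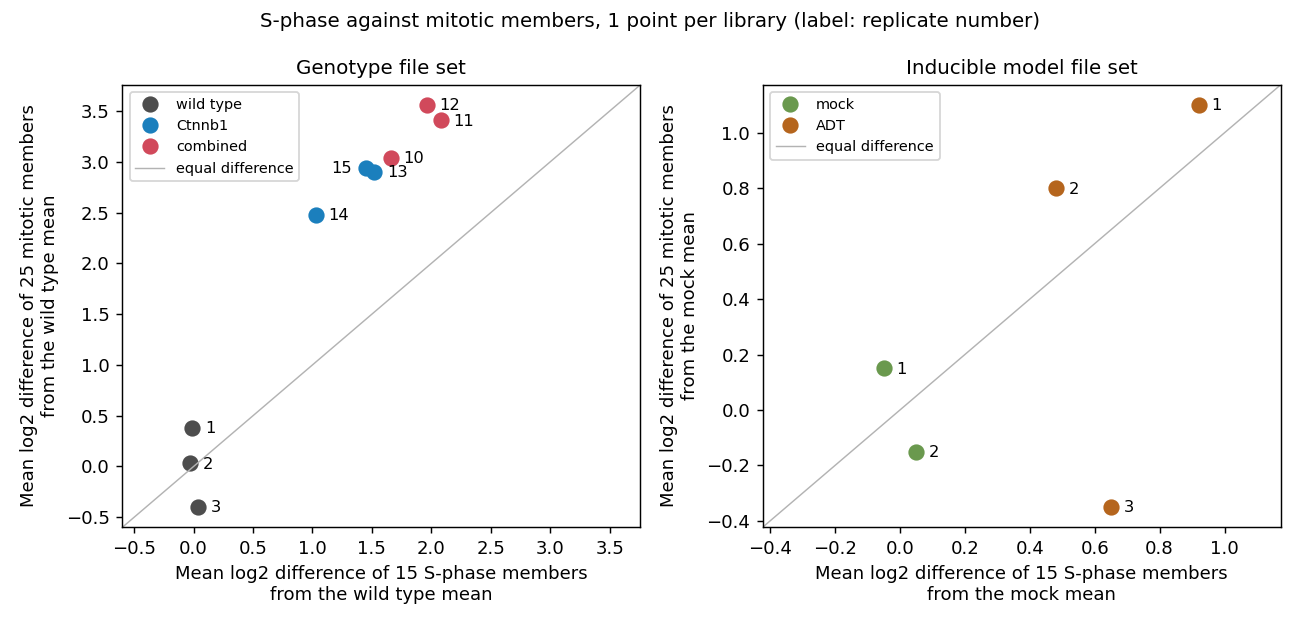
Mean log2 difference of the 25 mitotic members (vertical axis) against that of the 15 S-phase members (horizontal axis) in each library, from the wild type mean (left) and the mock mean (right), with the line of equal difference. The 6 tumour libraries at left lie above the line by 1.33 to 1.60, and at right the ADT replicate 3 library combines an S-phase average of 0.65 with a mitotic average of -0.35.

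Other genes of the same machinery, taken from lists of each step, rose in most but not all cases. Of 18 further origin genes, 9 were higher and 1 lower in the Ctnnb1 tumours and 14 higher and 1 lower in the combined tumours (medians 0.42 and 0.82). Ticrr, which brings the activator CDC45 to origins, had a mean of 9.67 reads in wild type, 105.0 in the Ctnnb1 and 152.7 in the combined group, differences of 3.32 and 3.90. Orc2, a subunit of the origin recognition complex, was called lower, at -0.40 and -0.24, but turned to 0.09 and 0.28 with equal totals, under which 16 and all 18 of the list were higher. Of 27 fork genes, 20 and 23 were higher and 1 lower (medians 0.86 and 0.96), among them Lig1, the ligase that joins Okazaki fragments (2.69 and 2.1), and Uhrf1, which guides DNA methylation after the fork (2.36 and 2.94). The gene called lower was Pold2, a subunit of DNA polymerase delta, at -0.29 and -0.57, which became 0.20 and -0.06, neither called, with equal totals.

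Of 9 further genes of nucleotide supply 8 and 6 were higher and none was lower (medians 0.57 and 0.46). Umps, the last enzyme of UMP synthesis, had a mean of 171.3 reads in wild type, 521.7 in the Ctnnb1 and 466.0 in the combined group (1.62 and 1.46). Dck, deoxycytidine kinase, differed by 0.74 and 1.64, and Tk1, thymidine kinase 1, by 0.98 and 1.16. With equal totals all 9 were higher in each comparison.

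The mitotic lists held few exceptions. Of 28 kinetochore and checkpoint genes 23 and 25 were higher and none lower in the 2 comparisons (medians 1.76 and 2.30), with Ska3, of the complex that couples kinetochores to microtubules, at 3.03 and 3.26 and Mad2l1, the MAD2 checkpoint protein, at 2.48 and 2.72. Of 24 spindle and cytokinesis genes 22 and 23 were higher and none lower (medians 2.67 and 3.2), with Ect2, the exchange factor of cytokinesis, at 2.82 and 3.53 and Aspm, a spindle pole protein, at 3.42 and 3.75. Of 17 condensin and cohesin genes 15 and 13 were higher (medians 0.78 and 1.05), led by the condensin gene Ncapg at 3.66 and 4.29, and 1 was lower, the cohesin gene Stag2 in the combined group (-0.25), which was called higher with equal totals (0.26).

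The counts for regulators of mitotic entry and the anaphase-promoting complex depended on the scaling. Of 21 genes 9 and 11 were higher and 4 and 5 lower, and the medians were 0.04 and 0.21; with equal totals 18 and 17 were higher and 1 lower, with medians of 0.53 and 0.73. Cdc25c, a phosphatase that activates CDK1, rose from a mean of 12.0 reads in wild type to 95.0 and 122.0 (2.98 and 3.33), as did Mastl, the Greatwall kinase (2.28 and 2.87). Cdc25a, a phosphatase of the same family, fell from a range of 1452 to 1698 reads in wild type to 597 to 672 in the Ctnnb1 and 619 to 906 in the combined group (-1.28 and -1.11), and was the gene still called lower with equal totals. Also called lower in both were Cdc23, a subunit of the complex, and Cks1b, a CDK adaptor, with Cdc26 lower in the Ctnnb1 and Anapc5 and Anapc7, all subunits of the complex, lower in the combined group; with equal totals these lost the call or turned, as Cdc23 did to 0.07 and 0.04, Cdc26 to 0.27 and Anapc7 to 0.20. Among 17 E2F, DREAM and MYB-MuvB factors 10 and 9 were higher and 3 and 4 lower. E2f8, an E2F repressor, had a mean of 17.7 reads in wild type and 187.3 and 324.3 in the tumours (3.38 and 4.17), and Lin9, of the MuvB core, differed by 1.38 and 1.34. The lower ones were Lin52, of the same core (-0.70 and -1.02), Tfdp2, a partner of E2F (-0.30 and -0.85), Rbl2, the p130 pocket protein (-0.44 and -0.87), and in the combined group E2f6 (-0.71). With equal totals none of them was called lower in the Ctnnb1 group, where Tfdp2 and Rbl2 turned to 0.19 and 0.06, and 2 were in the combined group, Lin52 and Tfdp2.

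Markers of other cell types moved with both comparisons. All 8 smooth muscle markers fell, with summed levels of 141344 to 181428 in wild type, 1338 to 2904 in the Ctnnb1 and 5225 to 18376 in the combined libraries. Macrophage and monocyte markers were higher for 7 and for all 8 of 8 genes (sums of 2716 to 3309, 6356 to 9633 and 7801 to 24829), and neutrophil markers for 3 and for 4 of 4 tested. Of 6 T and NK cell markers tested 3 were higher in each, while B and plasma cell markers were called for none of 6 and for 3 of 6. Markers of the luminal list had sums of 105522 to 120400 in wild type, 89357 to 121998 in the Ctnnb1 and 102807 to 152502 in the combined group. Of these 6 markers 1 was higher and 2 lower in the Ctnnb1 tumours, and 2 were higher and 2 lower in the combined tumours. Krt8 was higher (1.07 and 1.41), as was Cdh1 in the combined group (0.87), and the lower ones were Hoxb13 (-1.28 and -1.99) and Epcam (-0.98 and -1.01), which was not called with equal totals (-0.49 in both). No marker in these tables was at 0 throughout. Endothelial markers were higher for 1 and lower for 1 of 6 in the Ctnnb1 tumours and higher for 4 in the combined tumours; fibroblast markers were lower for 1 of 6 and higher for 4. Of 6 basal markers 1 was higher, Itga6 (2.05 and 1.64), and 1 lower, Dst (-1.13 and -1.06), in each comparison, with list medians of -1.06 and -1.19. Not called were Trp63 (-2.50 and -2.55, SE 1.01), Krt15 (-2.67 and -1.87, SE 1.02), Krt5 (-0.98 and -1.32) and Krt14 (0.43 and 0.69). With equal totals 1 basal marker was higher and none lower. The part of these cell types in the values of the members was not tested.

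Treatment of the inducible model was compared within its own 5 libraries, where 2 of 23289 genes (0.00859%) were called, both higher: Pycr1 and Tubb4a, named here after their values were seen. None of the 40 members was called. At an unadjusted p under 0.05, which 16.2% of all genes reached and 7.43% in the higher direction, 9 of 15 S-phase members and none of 25 mitotic members were higher. The S-phase median was 0.70 and the mitotic median 0.52, beside -0.02 for all genes. For 12 of 15 S-phase members and 1 of 25 mitotic members every ADT library lay above both mock libraries, as it did for 16.4% of all genes.

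The S-phase members with the smallest p were Mcm5, Ccne2 and Tyms. Mcm5 had 951 and 1087 reads in mock and 2034, 1713 and 1972 in ADT, a difference of 0.90 (SE 0.15, adjusted p = 0.128). Ccne2 had 258 and 254 reads in mock and 642, 485 and 444 in ADT (1.01, SE 0.23, adjusted p = 0.181). For Tyms the values were 673 and 719 in mock and 1025, 1173 and 1021 in ADT (0.62, SE 0.14, adjusted p = 0.182). In all 3 the ADT libraries lay above both mock libraries, and the smallest adjusted p of any member over all 14 alternatives was 0.0892, for Mcm5. Ccne1 was at 206 and 210 reads in mock and 479, 429 and 311 in ADT (0.94, SE 0.26, adjusted p = 0.206), and E2f1 at 423 and 216 against 937, 476 and 857, the largest S-phase difference at 1.26 with the widest mock pair. Mcm2 had 1141 and 1555 reads in mock and 2586, 2047 and 2332 in ADT (0.80, SE 0.20, adjusted p = 0.188). Pcna overlapped, with 3278 and 2641 in mock and 4291, 2991 and 3936 in ADT (0.33, SE 0.21, adjusted p = 0.497), as did Mcm6 and Rrm2.

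The mitotic members split the 3 ADT libraries. Mki67 had 3007 and 3059 reads in mock and 6436, 5847 and 2257 in ADT, a difference of 0.54 (SE 0.51, adjusted p = 0.648). Top2a followed the same order with 2512 and 2742 in mock and 7576, 5287 and 2295 in ADT (0.78, SE 0.54, adjusted p = 0.519). The ADT replicate 1 and 2 libraries thus lay far above mock and replicate 3 below it. Foxm1, which had the smallest p of the mitotic members, was the one whose groups did not overlap, with 744 and 586 in mock and 1835, 1481 and 776 in ADT (0.96, SE 0.42, adjusted p = 0.363). Next came Tpx2, with 1360 and 840 against 2456, 1984 and 1205 (0.76, SE 0.39, adjusted p = 0.425), and Bub1, with 456 and 319 against 1060, 644 and 395 (0.76, SE 0.47, adjusted p = 0.497). For these 2 the third ADT library lay between the mock libraries.

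Library by library, the ADT replicate 1 and 2 libraries stood above both mock libraries for all 25 mitotic members, against 34.2% and 33.5% of all genes. Replicate 3 stood above both for 1 of 25 and below both for 18. The replicate 3 library was the lowest of the ADT group for all 25, against 31.2% of all genes, and below both mock libraries for 35.6% of all genes. Its S-phase members stood elsewhere: 14 of 15 lay above both mock libraries, against 35.6% of all genes, beside 15 and 13 in replicates 1 and 2. Averaged over members, the S-phase differences from mock were 0.92, 0.48 and 0.65 in replicates 1, 2 and 3, and the mitotic differences 1.10, 0.80 and -0.35. Cdk1 showed the reversal within 1 gene, with 1515, 1134 and 479 reads in ADT beside 1044 and 743 in mock. Without replicate 3 the mitotic median was 1.01, a rise that follows from leaving out the lowest ADT library for all 25. In that limma fit 18 of 25 mitotic members reached an unadjusted p under 0.05, none an adjusted one. The library left out was picked by these same values, so that count is no test of the members. Beside them stood 3211 of all 22732 genes tested, counted in either direction. Without replicate 1 the median was 0.25 and without replicate 2 it was 0.37, with 0 of 25 at that level in each limma fit. Of all genes, 3979 of 22790 and 3214 of 22684 reached it there, in either direction.

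**Figure D4:**
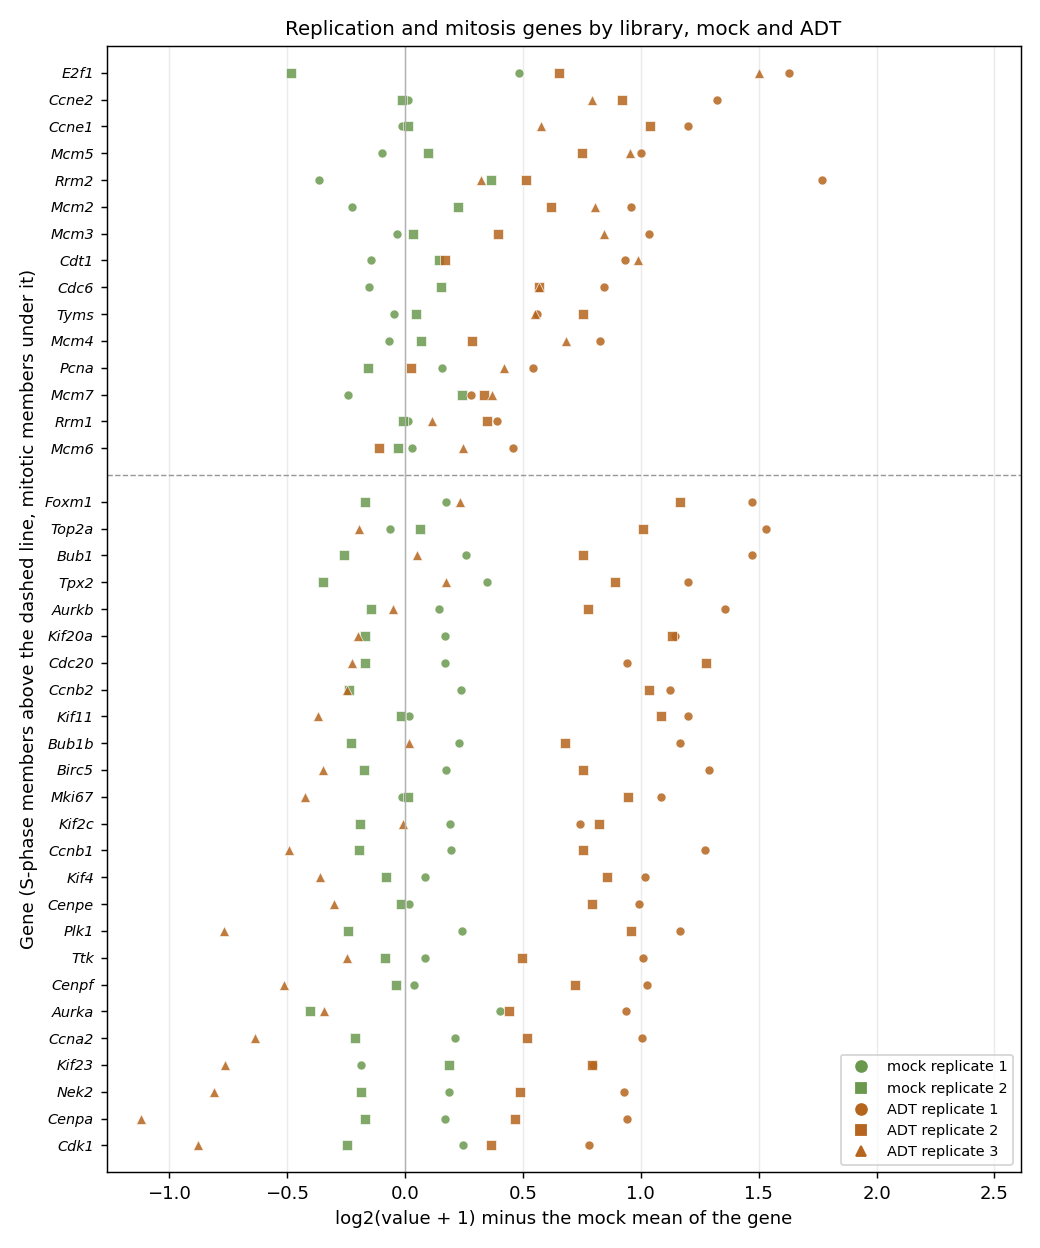
Differences of the 40 members in each library of the inducible model, as log2(value + 1) minus the gene's mock mean (horizontal axis), with 1 row per gene and 1 marker per library. In the lower block the ADT replicate 3 triangles lie left of the ADT replicate 1 and 2 markers in all 25 mitotic members, while in the upper block 14 of 15 lie right of both mock markers.

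Among the other genes of the machinery no gene was called after ADT. At an unadjusted p under 0.05, 5 of 18 origin genes and 6 of 27 fork genes were higher, with 1 fork gene, Pold3, lower (-0.51). Mcm10, an origin firing factor, had 299 and 401 reads in mock and 644 to 661 in ADT (0.92). Of the kinetochore list 5 of 28, of the spindle list 1 of 24 and of the condensin and cohesin list 2 of 17 were higher at that level, including Ska2 (0.73) and Ckap5 (0.67); the spindle count lies below the 7.43% of all genes. Pttg1, securin, was lower in the condensin and cohesin list (-0.39, unadjusted p = 0.0473). Of the 9 nucleotide genes none was higher and 1 lower, Shmt1, a serine hydroxymethyltransferase, with 1087 and 1118 reads in mock and 288 to 523 in ADT (-1.37, SE 0.32, adjusted p = 0.184). E2f8 again had a large difference, from 230 and 354 reads in mock to 733 to 1539 in ADT (1.85, SE 0.39, adjusted p = 0.166). Wee1, the kinase that holds CDK1 inactive, was at 938 and 969 reads in mock and 380 to 558 in ADT (-0.97, SE 0.23, adjusted p = 0.187).

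Cell type markers also differed between the libraries of the inducible model, with none called. Luminal marker sums were 99122 and 121888 in mock and 60902 to 76247 in ADT. The ADT replicate 3 library had the lowest sums of the ADT group for T and NK cells (127, beside 272 and 673), for B and plasma cells (739, beside 1777 and 3408), for macrophages and monocytes (8864, beside 12934 and 15225), for neutrophils (1160, beside 1440 and 1632) and for fibroblasts (51331, beside 70194 and 355603). Its sums for luminal (62229), basal (44987) and smooth muscle markers (12178) lay between those of replicates 1 and 2, and its endothelial sum was the highest (8232, beside 8105 and 7929). The part of these markers in the mitotic values of that library was not tested.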

How the data were processed

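The authors deposited 1 file of whole numbers per sample, a score: gene read counts divided by a factor per library and rounded, as judged from the values. The submitters' processing notes list, with no role for each, HTSeq 0.6.0 and DESeq2 1.14.1, TopHat2 2.1.0 with Bowtie2 2.2.6.0, FastQC 0.11.4 and R 3.2.3, and the build GRCm38.p3. Since the values are not raw counts and the factors were not used here, no count model was run and depth cannot be stated. Features without an Entrez number, Entrez numbers on several features and features repeating another gene's values were left out. Genes with a value of at least 1 in at least 3 of 9 libraries (genotype files; lowest mean 15.6) or 2 of 5 (inducible model) were tested on log2(value + 1) with limma 3.58.1 in R 4.3.3 (moderated test, trended prior variance, group as the only factor), tested on simulated data first. The 9 libraries share 1 fit; the inducible model was fitted alone. A further genotype group (n = 3) and comparisons resting on the further engineered change are not reported here, nor are 2 genes of the pathway and marker lists, which were left out of the list counts, medians and sums.

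Full statistics are given for Mki67, Top2a, Mcm2, Pcna and Ccne1, for the 3 largest and the smallest differences of each kind in the genotype comparisons, and for the 3 smallest p after ADT; pathway lists give up to 3 genes of smallest p and those against the trend, and further members and genes are named for their role. Members and lists were chosen with earlier results of these data known. Gene positions and exon lengths are from GENCODE M21. Alternatives were pseudocounts of 0.5 and 5, no filter or a mean of at least 50, equal totals, quantile normalization, other prior variances, other libraries in the fit, a replicate block and each library left out.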

Additional observations from a re-analysis of the deposited data

How the results depend on the processing

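In the genotype comparisons all 25 mitotic members were called higher under every alternative, and the 15 S-phase members likewise except E2f1, which left 14 in the Ctnnb1 comparison under the 3 settings given in the report. After ADT no member was called under any alternative. The 2 genes called there became 7 with a pseudocount of 5, 60 with a mean of at least 50, 44 with equal totals, 29 with a robust prior variance, and 0 without a trend in the prior variance, with the replicate block and with any library left out (0 to 0); the cause was not tested. With limma at an unadjusted p under 0.05, these counts of 0 stood beside 3507 genes (no trend), 3206 (block) and 2334 to 3979 (libraries left out). The mock and ADT labels share the numbers 1 and 2. Deviations of same-numbered libraries correlated at 0.223 and 0.117 over genes, too few pairs to show that the numbers mark a shared source. The 2 mock libraries deviate from their mean as mirror images, so the cross-numbered pairs had to give -0.117 and -0.223. With the replicate block, ADT replicate 3 has no partner, and its own term takes up that library wholly. The mitotic median of 1.01 is thus that of the fit without ADT replicate 3 and is no second check. The limma fit with the block rests on mock and ADT replicates 1 and 2, with little left per gene to estimate the spread. In it 6 S-phase and 23 mitotic members reached an unadjusted p under 0.05, and no member was called. Of all 23289 genes, 3206 reached it, in either direction. Without ADT replicate 1 the differences of Ccna2, Cdk1, Nek2 and Cenpa turned negative, those of Cdk1 and Cenpa also without ADT replicate 2 or mock replicate 2, and that of Aurka without mock replicate 2. The mitotic members varied by 46.7% (median coefficient of variation) between the ADT libraries. Equal totals also moved list genes of small difference, as the report states, while no list gene that was called changed sign under quantile normalization. The reads behind a value are unknown, since the values are scaled.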
